A study of Mus musculus with 6 samples.

Results

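The genes examined were 10 components of the mTOR and AMPK pathways, chosen by symbol from a table of 24054 genes measured in mouse gastrocnemius muscle: Mtor, Rptor, Rictor, Rps6kb1, Eif4ebp1, Sesn1, Ddit4, Prkaa1, Prkaa2 and Prkag3. All 10 were in the table, and all 10 were among the 12660 genes with enough reads to be tested. The 6 libraries came from male C57BL/6 mice, 3 lacking IRF4 in muscle (MI4KO, Irf4 flox/flox with Myl1-cre) and 3 overexpressing it there (MI4OE, a Rosa26 lox-stop-lox IRF4 transgene with Myl1-cre). Both groups carry Myl1-cre, which acts in skeletal muscle fibres, so IRF4 in the other cells of the tissue was not targeted, and no flox or wild-type gastrocnemius was analysed here. Every difference below is therefore overexpressor against knockout and does not say which genotype departs from normal muscle. The labels record a high-fat diet for all 6 mice, whereas the study describes its animals on chow, so the diet is in doubt. The labels give no age, and nothing in them says more of the 3 samples in a group than that they are separate samples. The p-values set each difference against the spread between these samples.

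mTOR is a kinase that works in a pair of complexes. In mTORC1, built on raptor, it promotes protein synthesis by phosphorylating p70 S6 kinase and the eIF4E-binding proteins, and in mTORC2, built on rictor, it phosphorylates SGK1 and related kinases. AMPK, a trimer of a catalytic alpha subunit and regulatory beta and gamma subunits, is activated when cellular energy falls and restrains mTORC1 through TSC2 and raptor. In muscle this pair of kinases links nutrient supply and contraction to growth and glycogen use. The study examined phosphorylation of mTOR and p70 S6 kinase and reported mTOR signalling as induced in knockout gastrocnemius. It presumed from this that IRF4 may act on a glycogen-targeting protein by way of mTOR. The values here are transcript levels, which do not measure kinase activity.

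Library totals ran from 18828605 to 29239585 expected counts, and 3 counts, taken as the detection floor, corresponded to between 0.101 and 0.148 CPM (counts scaled by library size). Irf4 itself was at 140.9, 369 and 261.1 CPM under overexpression and at no more than 6 counts in any knockout library, as the genotype labels state. MI4OE replicate 1 stood apart. Its 9 slow fibre markers summed to 6967 CPM, against 39.2 to 137 CPM in the MI4KO libraries and 52.96 and 650 CPM in the other MI4OE libraries, and it held the lowest value of 30.4% and the highest of 31.5% of all genes tested. In MI4KO replicate 1, 18 glucocorticoid and fasting response genes summed to 3931 CPM, against 1401 to 1884 CPM elsewhere.

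No member differed between the genotypes at an adjusted p under 0.05 with edgeR's quasi-likelihood test, a threshold passed by 0.0237% of all genes tested. Ddit4 alone met the study's criterion of a 1.5-fold difference and an unadjusted p under 0.05, which 6.64% of all genes met, 2.28% of them lower and 4.36% higher in MI4OE. Ddit4 was also the 1 member with an unadjusted p under 0.05, where 2.68% of all genes were lower and 4.90% higher. The log2 fold change of MI4OE over MI4KO was below 0 for 7 members and above 0 for 3, where 6333 of the 12660 genes were below 0. The median was -0.26 over the members and -4.3e-05 over all genes. The plot of member levels shows each library.

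**Figure D1:**
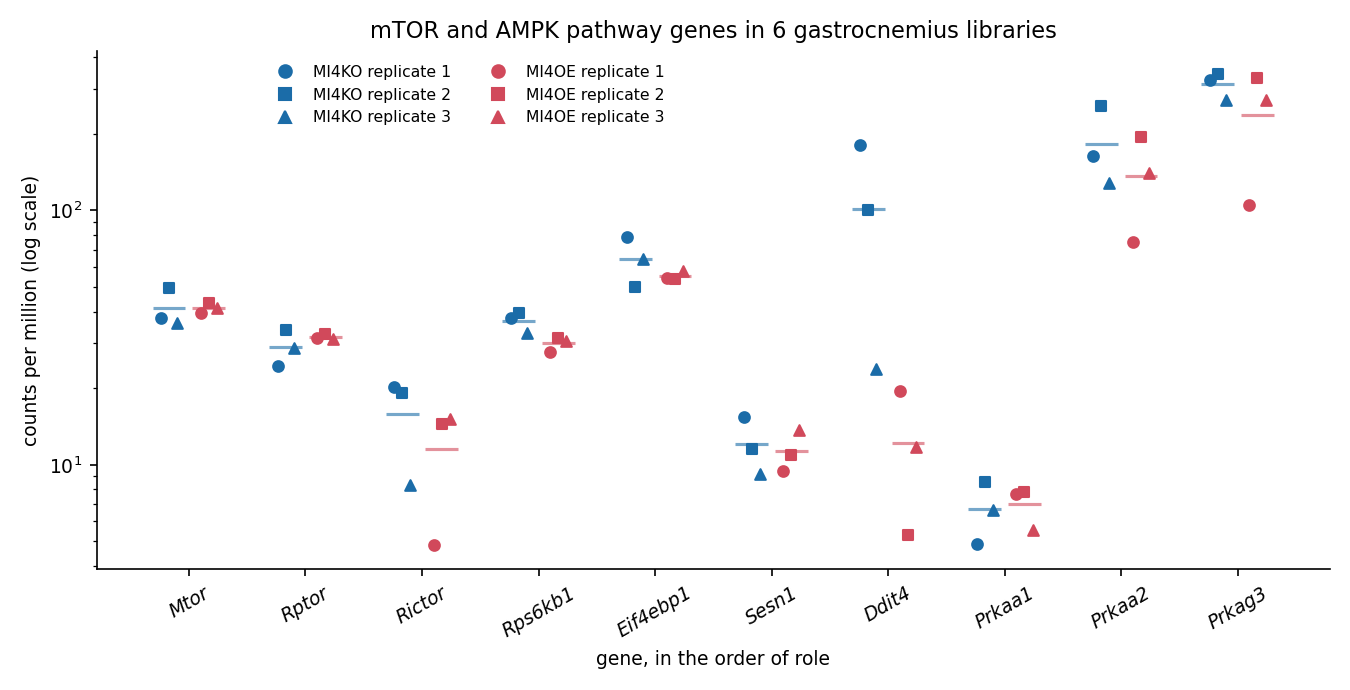
CPM on a log scale of the 10 genes in each of the 6 libraries, with 1 point per library and a bar at the mean of each group of 3. Ddit4 is the gene whose points are farthest apart, from 5.31 CPM in MI4OE replicate 2 to 180 CPM in MI4KO replicate 1.

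Among the mTOR complex genes, Mtor, the kinase itself, had 37.9, 49.8 and 36.0 CPM in the MI4KO libraries and 39.5, 43.4 and 41.4 CPM in the MI4OE libraries. All 3 overexpressor values lay inside the knockout range. The means were 41.2 ± 7.45 and 41.4 ± 1.94 CPM (SD, n = 3 each), and the log2 fold change was 0.01, with a 95% confidence interval from -0.39 to 0.40 and an edgeR adjusted p of 0.997. In linear terms the interval runs from 0.765-fold to 1.32-fold. The sign is not fixed either, since it turned negative with DESeq2, with the RLE scaling and without the filter on low counts.

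Rptor, which encodes raptor, had 24.4, 34.0 and 28.7 CPM in MI4KO and 31.5, 32.8 and 31.3 CPM in MI4OE. The MI4OE values again sat within the MI4KO range, and their coefficient of variation was 2.50%, against 16.4% in MI4KO. Its log2 fold change was 0.13, with an interval from -0.24 to 0.51 and an edgeR adjusted p of 0.885. The value was 0.018 without MI4KO replicate 1, its lowest library, and 0.25 without MI4KO replicate 2, its highest.

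Rictor, the scaffold of mTORC2, was the most variable of the 3, at 20.2, 19.1 and 8.36 CPM in MI4KO and 4.82, 14.5 and 15.2 CPM in MI4OE. The low values were MI4KO replicate 3 and MI4OE replicate 1, 1 library in each group. The log2 fold change of -0.46 had an interval from -1.57 to 0.65 (edgeR adjusted p = 0.867), and without 1 library it ran from -0.78 (MI4KO replicate 3) to -0.10 (MI4OE replicate 1). It became 0.11 when replicate 1 of both groups was left out. Per length, Rptor transcripts made up 61.9% to 89.8% of the summed TPM, a length-corrected level, of Rptor and Rictor over the 6 libraries. The mean share was 71.6 ± 10.2% in MI4KO and 79.6 ± 8.89% in MI4OE (SD, n = 3 each), and it did not pass a two-sided exact permutation test (p = 0.4, adjusted p = 0.8 over 7 families). The difference of 7.99 percentage points ran from 2.88 without MI4OE replicate 1 to 13.3 without MI4KO replicate 3. With 3 libraries against 3 that test cannot go below 0.1.

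Of the mTORC1 substrates, Rps6kb1, which encodes p70 S6 kinase 1, had 37.9, 39.6 and 32.9 CPM in MI4KO and 27.8, 31.6 and 30.6 CPM in MI4OE. Every MI4OE library was below every MI4KO library, as it was for 5.48% of all genes tested, with a further 7.38% wholly higher in MI4OE. The means were 36.8 ± 3.50 and 29.99 ± 1.96 CPM (SD, n = 3 each), and the log2 fold change of -0.29 had an interval from -0.63 to 0.04. The unadjusted p was 0.079 and the adjusted p 0.709 with edgeR's quasi-likelihood test, so the difference did not pass. Its paralog Rps6kb2 was the more abundant transcript per length, and Rps6kb1 held 25.4% to 34.2% of the pair's summed TPM.

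Eif4ebp1, a repressor of the cap-binding protein eIF4E, had 78.4, 50.1 and 64.2 CPM in MI4KO and 54.3, 53.6 and 57.9 CPM in MI4OE. The groups overlapped, and the log2 fold change was -0.22 with an interval from -0.66 to 0.23 (edgeR adjusted p = 0.851), and it was -0.05 without MI4KO replicate 1, its highest library, and -0.38 without MI4KO replicate 2, its lowest. Its level moved little, but its share of the family did not. Eif4ebp1 was 74.1%, 44.0% and 72.5% of the summed TPM of the 3 binding proteins in MI4KO, and 83.8%, 50.6% and 67.0% in MI4OE. The swing came with Eif4ebp2, which ran from 10.97 TPM in MI4OE replicate 1 to 128 TPM in MI4KO replicate 2. The genotype means of the Eif4ebp1 share, 63.5% and 67.2%, did not pass an exact permutation test (p = 0.8).

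Ddit4 and Sesn1 encode stress-induced inhibitors of mTORC1: REDD1, which acts through TSC2, and sestrin 1, which acts through GATOR2. Ddit4 had 180, 100.5 and 23.9 CPM in the MI4KO libraries and 19.4, 5.31 and 11.8 CPM in the MI4OE libraries. These rest on 4397, 2536 and 712 counts and on 395, 152 and 267 counts, far above the floor. All 3 knockout libraries were above all 3 overexpressor libraries, but the lowest knockout and the highest overexpressor lay close together, while the knockouts themselves spanned most of the range. The means were 101.5 ± 78.0 and 12.2 ± 7.07 CPM (SD, n = 3 each).

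The log2 fold change of Ddit4 was -3.06 ± 0.75 (SE), or 8.35-fold lower in MI4OE, with an interval from -4.81 to -1.31. The unadjusted p was 0.0040 and the adjusted p 0.483 with edgeR's quasi-likelihood test, and an exact permutation test of the 6 values gave 0.1, the smallest p it allows. Ddit4 stood at position 53 of the 12660 genes by the size of the fold change and at 105 by p. The call depended on the test. The adjusted p was 0.0116 with edgeR's exact test, which called 0.474% of all genes lower, and 0.0547 with the DESeq2 Wald test, which called 0.482% lower. Without MI4KO replicate 1, the library with the highest value, the log2 fold change was -2.37 (edgeR adjusted p = 0.756). Over 16 alternatives it ran from -3.58 to -2.37.

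**Figure D2:**
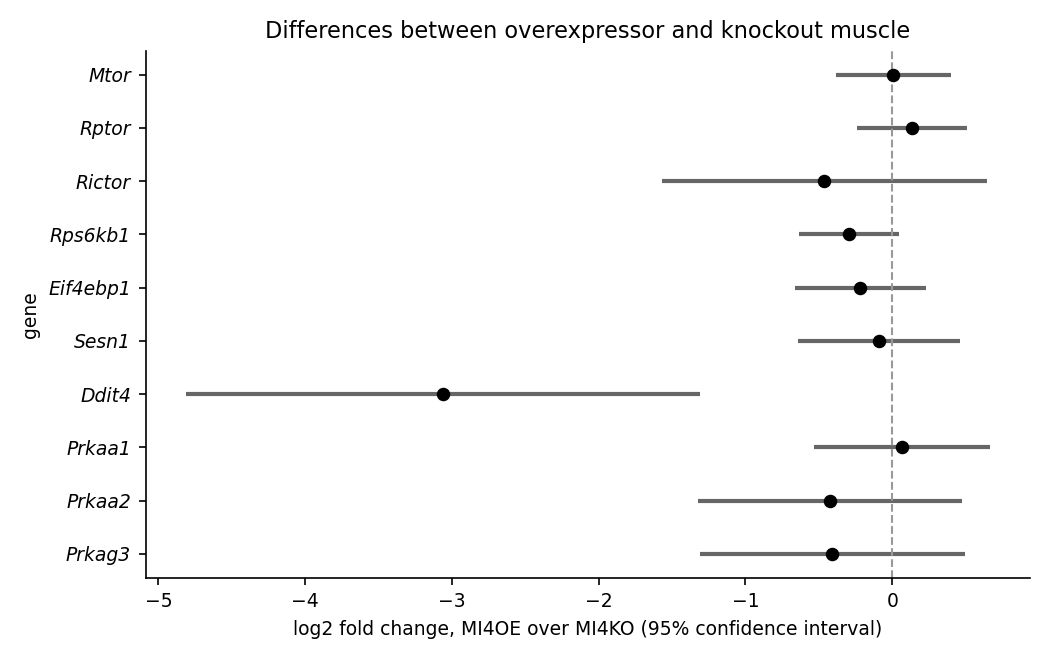
Log2 fold change of MI4OE over MI4KO for each of the 10 genes, with points for the edgeR estimate and lines for its 95% confidence interval. The interval of Ddit4, from -4.81 to -1.31, is the only 1 of the 10 that leaves out 0.

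Since Ddit4 was the member whose groups lay farthest apart, the 250 bases before its transcription start are shown from RefSeq (GRCm38.p6, chr10:59951771-59952020, minus strand, written 5′ to 3′ along the gene), with the 1 motif match found in capitals:

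Ddit4 promoter: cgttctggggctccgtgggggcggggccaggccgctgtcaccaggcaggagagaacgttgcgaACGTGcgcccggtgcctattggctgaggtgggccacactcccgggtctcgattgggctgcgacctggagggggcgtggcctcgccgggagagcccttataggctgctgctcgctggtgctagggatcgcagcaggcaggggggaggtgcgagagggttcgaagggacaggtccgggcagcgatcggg

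The capitals mark ACGTG, the only form of the hypoxia response element core that was searched, at 187 to 183 bases before the start. The same 5 letters lie at 34 to 30 bases before the start of Rptor, and 16.6% of 32851 promoter windows hold them on either strand, so the match is common. No other searched motif was found in the 10 windows of the 9 members that the table holds, Eif4ebp1 having no entry in it. The motifs searched on both strands were the interferon-stimulated response element GAAANNGAAA (in 2.98% of all windows), the ETS-IRF composite element GGAANNGAAA (2.3%), the FoxO element GTAAACA (3.17%), the E-box CACGTG (6.02%), which contains ACGTG, the cyclic AMP response element TGACGTCA (1.55%) and the glucocorticoid response element GAACANNNTGTTC (0.0396%).

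Sesn1 had 15.5, 11.5 and 9.24 CPM in MI4KO and 9.45, 10.98 and 13.6 CPM in MI4OE. The groups overlapped over nearly their whole range. The log2 fold change was -0.09, with an interval from -0.64 to 0.46 (edgeR adjusted p = 0.959), and it was positive with total-count scaling and on the log2(TPM + 1) scale. Sesn1 supplied most of the sestrin transcripts, 61.3% to 82.6% of the summed TPM of Sesn1, Sesn2 and Sesn3. It was also the member with the most variable transcript make-up. The longer of its 2 transcripts, of 3182 bases, took 9.98%, 48.9% and 26.2% of its TPM in MI4KO and 14.1%, 20.0% and 18.3% in MI4OE. RSEM divides reads among transcripts, so these shares are estimates. Rps6kb1 also had 2 transcripts, the minor 1 at 0.37% to 2.09%, and the other 8 members had 1 each.

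The 3 AMPK subunits differed widely in level. Prkaa1, the widely expressed alpha 1 subunit, had 4.87, 8.56 and 6.65 CPM in MI4KO and 7.67, 7.83 and 5.52 CPM in MI4OE. Prkaa2, the alpha 2 subunit that predominates in muscle, had 164, 257 and 128 CPM in MI4KO and 75.2, 195 and 140 CPM in MI4OE. Prkag3, the gamma 3 subunit characteristic of fast glycolytic fibres, had 325, 343 and 272 CPM in MI4KO and 105, 332 and 272 CPM in MI4OE. In all 3 the groups overlapped, and for Prkaa2 and Prkag3 the lowest value of all was MI4OE replicate 1, the library rich in slow fibre markers.

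The log2 fold change was 0.07 for Prkaa1 (interval -0.53 to 0.66), -0.42 for Prkaa2 (interval -1.32 to 0.48) and -0.41 for Prkag3 (interval -1.31 to 0.50). Their adjusted p-values with edgeR's quasi-likelihood test were 0.974, 0.853 and 0.857. Leaving out 1 library at a time, Prkaa2 ran from -0.77 (without MI4OE replicate 2) to -0.11 (without MI4KO replicate 2), with -0.13 without MI4OE replicate 1. Prkag3 ran from -0.73 (without MI4OE replicate 2) to -0.06 (without MI4OE replicate 1). Prkag3 had fractional expected counts in all 6 libraries, which means that RSEM shared some of its reads with other genes.

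Each family was dominated by 1 subunit. Prkaa2 made up 94.98%, 94.4% and 91.5% of the summed alpha TPM in MI4KO and 84.6%, 93.3% and 93.4% in MI4OE. Prkag3 made up 78.1%, 81.7% and 74.2% of the gamma TPM in MI4KO and 50.9%, 79.5% and 75.6% in MI4OE. The remainder was mostly Prkag1, at 43.8% in MI4OE replicate 1. Prkab2, the beta subunit that predominates in muscle, held 81.7% of the beta TPM in MI4OE replicate 1 and 91.6% to 95.8% in the others. Outside that library the Prkag3 share lay between 74.2% and 81.7%. The difference of the genotype means was -3.18 percentage points for the Prkaa2 share and -9.35 for the Prkag3 share (exact permutation p = 0.5 for each, adjusted p = 0.8), and without MI4OE replicate 1 it was -0.26 and -0.48. Without MI4OE replicate 2 it was -4.61 and -14.8, and without MI4OE replicate 3 it was -4.66 and -12.8. In bulk tissue, fewer fibres of a type and less transcript per fibre cannot be told apart.

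**Figure D3:**
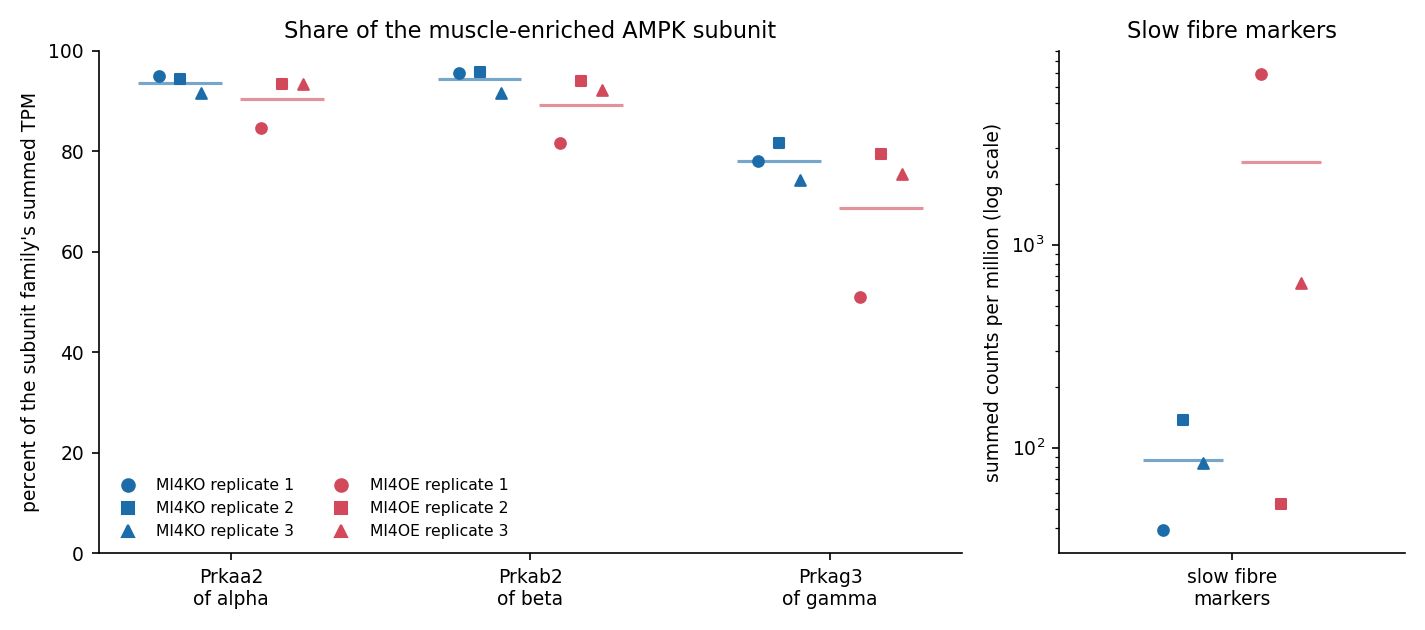
Left, the share in percent of the summed TPM of its AMPK subunit family held by Prkaa2, Prkab2 and Prkag3 in each library. Right, the summed CPM of 9 slow fibre markers on a log scale, with 1 point per library and a bar at each group's mean. MI4OE replicate 1 has the lowest share of all 3 subunits and the highest slow fibre sum, 6967 CPM.

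The 11 fast fibre markers summed to 162238 CPM in MI4OE replicate 1 and to between 228421 and 302999 CPM in the others. As a group, 8 of the 9 slow fibre markers met the criterion as higher in MI4OE (median 6.20 on the log2 scale). Without MI4OE replicate 1 or without MI4KO replicate 1, 0 of 9 did, and without MI4KO replicate 3, 2 did. The median was 2.96 without MI4OE replicate 1 and 5.62 without MI4KO replicate 1. With limma on log2(TPM + 1), 1 of 9 met the criterion and the median was 3.41. The part of fibre type in the values of Prkaa2, Prkag3, Rictor and Rps6kb1, the 4 members lowest in that library, was not tested.

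Per length, the order of mean level over the 6 libraries was Prkag3 (162 TPM), Eif4ebp1 (109), Ddit4 (54.4), Prkaa2 (32.0), Rps6kb1 (10.1), Mtor (7.80), Rptor (7.15), Sesn1 (7.04), Prkaa1 (2.43) and Rictor (2.38 TPM). The ranges of neighbours overlapped at every step but 2, from Prkaa2 to Rps6kb1 and from Sesn1 to Prkaa1. Rps6kb1 was nevertheless above Mtor within each of the 6 libraries, and Mtor above Rptor likewise. Ddit4 had no fixed place, running from 5.83 to 149.9 TPM.

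The rest of the pathway, in lists of genes by role, was read from the same test. None of the genes below passed an adjusted p of 0.05 with edgeR's quasi-likelihood test. Of the pathway and response genes, Sgk1 (0.0449) and Angptl4 (0.0010) did with DESeq2. The exact test of edgeR called Angptl4 (0.0022) and, as given above, Ddit4. Of 12 mTOR complex genes, 21 genes of mTORC1 activation at the lysosome and 12 of restraint by TSC and GATOR1, none had an unadjusted p under 0.05. The medians of the log2 fold changes were 0.02, -0.01 and -0.03. Without MI4KO replicate 2, 2 restraint genes had an unadjusted edgeR p under 0.05 as higher, and 1 met the 1.5-fold criterion. Without MI4OE replicate 2, 1 activation gene met it as lower. Among genes of at least 1 CPM, the extremes were Mlst8, the subunit common to both complexes (0.25), the Rag GTPases Rragb (0.37) and Rragd (-0.47), Gatsl2, now Castor2, a member of the CASTOR arginine sensor family (0.33), and Tsc1 (-0.20). All 7 AMPK subunit genes likewise lacked an unadjusted p under 0.05, from Prkab2 at -0.53 to Prkab1 at 0.16.

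Downstream, 18 of 20 mTORC1 targets in translation and autophagy had a log2 fold change below 0, with a median of -0.18. Only Lpin1, the phosphatidate phosphatase lipin 1, met the 1.5-fold criterion, at 424, 309 and 233 CPM in MI4KO and 157, 234 and 192 CPM in MI4OE (log2 fold change -0.73), and the groups overlapped. Lpin1 no longer met it without MI4KO replicate 1 (-0.49), MI4KO replicate 2, MI4OE replicate 1 (-0.60) or MI4OE replicate 3. Without MI4OE replicate 2, 3 of the 20 genes met it as lower, and the median was -0.29. The highest value of that list was Pdcd4 at 0.13. Among 6 mTORC2 targets tested, Sgk1, a kinase also known as a glucocorticoid-induced gene, had 168, 213 and 99.3 CPM in MI4KO and 64.8, 76.3 and 85.0 CPM in MI4OE. All Sgk1 values in MI4OE were below those in MI4KO (log2 fold change -1.09 ± 0.29 SE, edgeR adjusted p = 0.496), and its unadjusted p stayed under 0.05 without any 1 library.

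Of 8 genes of the kinases upstream of AMPK, 2 had an unadjusted p under 0.05, both encoding partners of LKB1: Stradb (-0.42) and Cab39l (-0.40). Neither reached 1.5-fold, and the count was 0 without MI4KO replicate 1, MI4OE replicate 1 or MI4OE replicate 3, with the exact test, with total counts and with limma on TPM. Among genes of at least 1 CPM, the ends of the list were Cab39 at -0.54 and Stk11, which encodes LKB1, at -0.01. Of 16 AMPK targets, 13 were below 0, and 2 met the criterion. Acaca, the cytosolic acetyl-CoA carboxylase, had 13.2, 34.1 and 24.9 CPM in MI4KO and 8.90, 13.9 and 11.9 CPM in MI4OE (-1.05), and Tbc1d4, a Rab GTPase-activating protein of glucose transport, had 21.1, 31.9 and 17.7 against 14.7, 10.8 and 15.8 CPM (-0.78). Without MI4KO replicate 2, in which both were highest, and with limma on TPM, 0 of the 16 met the criterion, and without MI4OE replicate 2 the count was 1. Acaca is also a lipogenic gene of fat cells. Of the adipocyte markers, 9 of 10 were tested, all 9 were lower in MI4OE and 7 met the criterion, their sums running from 741 to 2925 CPM in MI4KO and from 333 to 457 CPM in MI4OE, with none at 0 in every library. In the other direction, 5 of 7 endothelial markers and 6 of 7 fibroblast markers met the criterion as higher in MI4OE. The endothelial count was 2 without MI4KO replicate 1 or without MI4OE replicate 1, and the fibroblast count ran from 4 to 6 without any 1 library. The endothelial sums were 98.0 to 154 CPM in MI4KO and 181 to 340 CPM in MI4OE, and the fibroblast sums 220 to 362 and 382 to 513 CPM. All 6 Schwann cell markers had a log2 fold change above 0 (median 1.201), and 0 of them met the criterion. Their sum was 107 CPM in MI4KO replicate 2, against 24.5 and 16.6 CPM in the other knockouts and 65.8 to 204 CPM in MI4OE. Without MI4KO replicate 2 all 6 met the criterion (median 2.60), and without any 1 of the other libraries 0 or 1 did. The part of these cells in the values of the pathway genes, Ddit4 included, was not tested.

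Of the 7 stress inhibitors of mTORC1, Ddit4 and Ddit4l met the criterion. Ddit4l, which encodes the related REDD2, had 242, 230.5 and 279.7 CPM in MI4KO and 116, 192 and 165 CPM in MI4OE, again without overlap (log2 fold change -0.67 ± 0.23 SE, edgeR adjusted p = 0.550). Ddit4l, unlike Ddit4, no longer met the criterion without MI4KO replicate 3 or without MI4OE replicate 3. Its highest library was MI4KO replicate 3, the knockout in which Ddit4 was lowest. Trib3 was highest in that list at 1.03.

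Ddit4 is induced by glucocorticoids and by p53, among other stresses. Whether either had a part in the Ddit4 values here was not tested. Of 18 glucocorticoid and fasting response genes, all 18 had a log2 fold change below 0, from Klf9 at -0.03 to Mt2 at -3.70, with a median of -0.61. 7 had an unadjusted p under 0.05 and 6 of these also 1.5-fold: Tsc22d3, which encodes GILZ, Trim63, the muscle ubiquitin ligase MuRF1, Angptl4, an inhibitor of lipoprotein lipase, Cebpd, a transcription factor, Mt2, a metallothionein, and Glul, glutamine synthetase. The other was Errfi1. MI4KO replicate 1 was the highest library for Trim63 (810 CPM, against 158 to 263 CPM in the others), Glul (703 CPM), Mt2 (123 CPM, against 2.69 to 6.89 CPM) and Cebpd (68.8 CPM). Without it, 2 of the 18 met the criterion and the median was -0.35, whereas without MI4KO replicate 3, 12 did and the median was -0.77. Without any 1 of the other libraries the count was between 4 and 8. Of 9 p53 targets, none had an unadjusted p under 0.05, from Trp53inp1 at -0.82 to Bbc3 at 0.14. Their sums were 1185 to 1329 CPM in MI4KO and 787 to 1047 CPM in MI4OE. The criterion was met by 1 of the 9, as lower, without a filter, with RLE factors, DESeq2, edgeR's exact test and limma on TPM. The count was also 1 without any 1 MI4KO library or without MI4OE replicate 1. It was 0 with total counts and without MI4OE replicate 2 or 3.

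**Figure D4:**
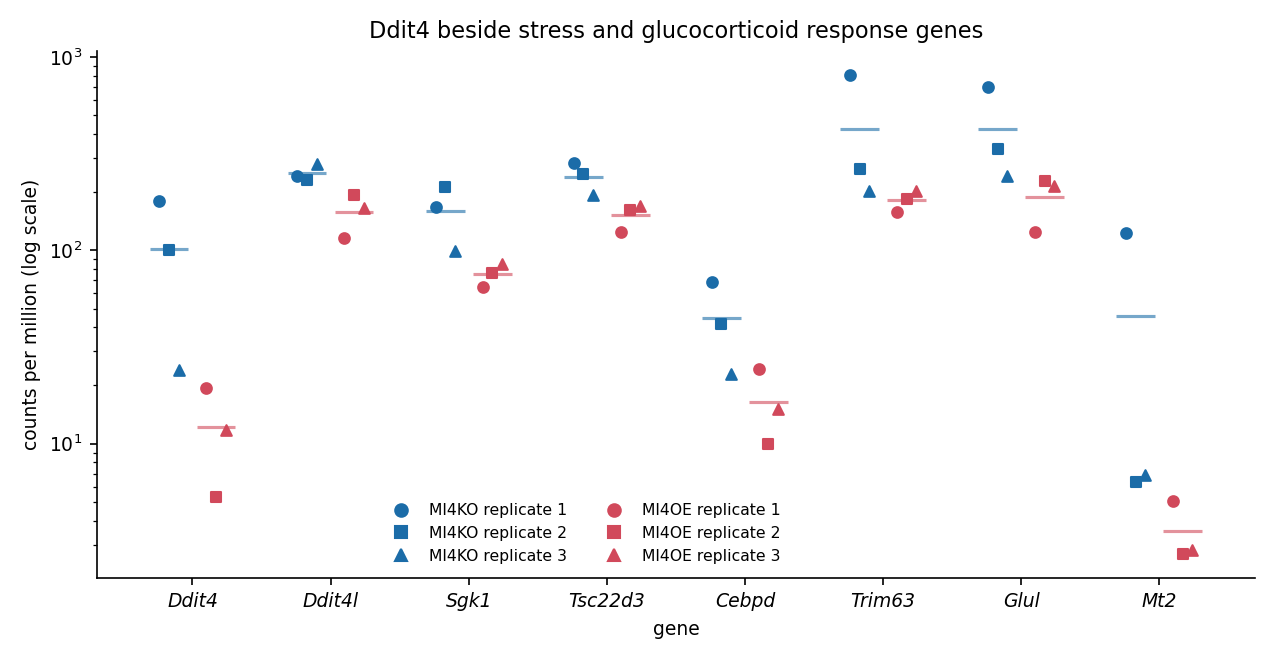
CPM on a log scale of Ddit4, its paralog Ddit4l, Sgk1 and 5 glucocorticoid and fasting response genes. The 5 are among the 6 of that list of 18 that met the criterion, so they do not stand for the whole list. Each library has 1 point and each group's mean a bar. MI4KO replicate 1 is the highest library for Ddit4, Tsc22d3, Cebpd, Trim63, Glul and Mt2, and MI4KO replicate 3 for Ddit4l.

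The genes most like each member across the 6 libraries were sought among 8203 genes of at least 5 CPM, by Pearson's r of log2 CPM. With 6 libraries and so many genes, values near 1 are to be had for any gene, and these are a description. For Ddit4 they were Cebpd (0.988), Zfp36 (0.978) and Osgepl1 (0.975), for Prkaa2 Kpna6 (0.9995), Cse1l (0.999) and Kpnb1 (0.998), and for Prkag3 Fiz1, Cacng6 and Gm4841 (0.994 to 0.995). Cebpd ran from 68.8 CPM in MI4KO replicate 1 to 9.96 CPM in MI4OE replicate 2, the same 2 libraries that bounded Ddit4. For Rps6kb1 they were Cish, Zfp131 and Taf5l (0.984 to 0.990), and for Rictor Vwa9, Pomt1 and Birc2 (0.990 to 0.994). Mtor was followed by Marf1, Smg1 and Arhgef6 (0.983 to 0.995), Rptor by Bdp1, Nup107 and Zfp362 (0.985 to 0.994), Eif4ebp1 by Fkbp8, Dnttip1 and Cdk2ap1 (0.989 to 0.994), Sesn1 by Ift52, Impact and Wbscr17 (0.948 to 0.973) and Prkaa1 by Cdk7, Ankrd10 and Cmtm4 (0.954 to 0.964).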

How the data were processed

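RNA from flash-frozen gastrocnemius was made into libraries with a Kapa Stranded mRNA kit and sequenced as single 50-base reads. Per the labels, the authors used bcl2fastq 2.17, Bowtie2 2.1.0 and RSEM 1.2.15. The genome build is not given in the sources used here. The deposited values are RSEM expected counts per gene, TPM per gene and transcript, and the percent of a gene given to each transcript. The authors' comparison tables, holding fold changes, p-values, false discovery rates and CPM, were not used. Expected counts were rounded, filtered with filterByExpr (minimum count 10) and scaled by TMM, and all genes were tested with edgeR 4.0.16 (glmQLFit, glmQLFTest, R 4.3.3) with Benjamini-Hochberg adjustment. Alternatives used DESeq2 1.42.0, limma 3.58.1, other filters and scalings, and leaving out libraries. Scripts were tested on simulated data. Intervals and floors cover the spread and counting error of these libraries only. The members, named-gene rule and lists were chosen with earlier results of these data known. Named were the members, their families, list genes with an unadjusted p under 0.05 and the extremes of each list above 1 CPM (1 is not reported here), and the 3 most alike genes per member. Older symbols were matched through RefSeq.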

Additional observations from a re-analysis of the deposited data

How the results depend on the processing

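No paired analysis was possible because the numbers given to libraries follow accession order, and no label links a knockout to an overexpressor. Of all genes, 3 passed an adjusted p of 0.05, against 111 with DESeq2, 112 with edgeR's exact test and 1 to 4 without 1 library, and 841 met the 1.5-fold criterion, against 468 with limma on log2(TPM + 1) and 590 to 1314 without 1 library. The members past an adjusted p numbered 0, or 1 with the exact test, and those higher in MI4OE 3, or 1 to 3 without 1 library. The count of members higher was 4 with total counts and with limma on TPM. It was 2 without a filter, with RLE factors and with DESeq2. A further pair of settings was chosen after seeing the data: without replicate 1 of both groups, 624 genes met the criterion, and with exact-test dispersions estimated without the design, 108 genes and 1 member, Ddit4 (0.0123), passed an adjusted p. The sign turned for 4 members, each with an interval that holds 0. Mtor was -0.0123 without a filter, -0.0016 with RLE factors, -0.0013 with DESeq2 and -0.094 to 0.15 without 1 library. Sesn1 was 0.0188 with total counts, 0.0212 and 0.0229 on the log2(TPM + 1) and log2(TPM + 0.1) scales and -0.26 to 0.12 without 1 library, and Prkaa1 ran from -0.12 to 0.27. Without replicate 1 of both groups the values were -0.021 for Mtor, 0.108 for Rictor, 0.241 for Sesn1 and -0.187 for Prkaa1. Without 1 library the Eif4ebp1 share differed by -6.14 to 11.9 percentage points and the Rps6kb1 share by -4.04 to 0.24. The cause was not tested. Of the 10 members, Rptor, Rps6kb1, Eif4ebp1, Prkaa2, Prkag3 and Ddit4 kept their sign under 16 alternatives, as did Rictor outside the setting without replicate 1 of both groups.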
